A study of Mus musculus with 7 samples.

Results

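The 43 genes described here encode integrin subunits, laminin chains, nidogens, syndecans, perlecan, agrin, dystroglycan, fibronectin and vitronectin. They were taken by gene symbol from a table of 18468 genes, and comprise 13 integrin α and 8 integrin β subunits, 11 laminin chains, 2 nidogens, 4 syndecans and 5 other genes (Hspg2, Dag1, Agrn, Fn1 and Vtn). RNA was sequenced from C3H10T1/2 cells, a line of mouse mesenchymal origin obtained from ATCC that can become osteoblasts or adipocytes. After 12 h without serum, the cells were kept for 48 h, still without serum, in 2 μM purmorphamine, which binds and activates Smo (4 libraries, replicates 5 to 8), or in 0.02% DMSO as vehicle (3 libraries, replicates 2 to 4). The question was which transcripts change when Smo, the transducer of Hedgehog signals, is switched on in cells that carry no introduced gene. Nothing states that the libraries came from separate cultures, so p-values measure the spread between these libraries, which may be technical.

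Integrins are cell surface receptors made of an α and a β subunit, and the α subunit largely sets which matrix protein is bound. Laminins are trimers of an α, a β and a γ chain that form the sheet of the basement membrane, to which nidogens couple the collagen IV network and to which perlecan and agrin attach. Cells hold on to this sheet through integrins, through dystroglycan and through syndecans, which are membrane proteins that carry heparan sulfate. Mesenchymal cells are known for receptors of fibronectin and of fibrillar collagen.

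The values are reads per gene as deposited, which the authors had resampled to near-equal depth, so that totals ran from 14337225 to 14342154. A gene was called where edgeR's quasi-likelihood test gave an adjusted p (Benjamini-Hochberg) under 0.2, the study's own threshold, over the 12388 genes that passed a filter on low reads. Gli1, a direct Hedgehog target and a check of the treatment, had 12, 7 and 11 reads under DMSO and 2811, 3171, 2576 and 2522 with purmorphamine. All 9 mesenchymal markers were detected, with summed reads of 199549 to 204918 with vehicle and 165504 to 174591 with purmorphamine. 5 of them rose (Pdgfra, Thy1, Prrx1, Twist1 and Twist2) and 2 fell (Col1a2 and Vim). Among markers of other cell types, the summed reads of 6 endothelial genes were 781 to 821 and 1898 to 2154, mostly Tek, with Pecam1 at 5 reads or fewer in every library and Cdh5 at 0 under DMSO and 21 to 26 under purmorphamine. S100b, which Schwann cells express, had 916, 907 and 1037 reads under DMSO against 562, 495, 487 and 545, and Mbp, a myelin gene, had at most 3. The 3 epithelial genes in the table summed to 14 to 23 and 111 to 136, nearly all Cdh1, and Krt8 and Krt14 had at most 1 read. The 5 leukocyte genes summed to at most 85 reads, with Ptprc at 1 or fewer, and the 3 skeletal muscle genes to at most 7. The part of these markers in the results below was not tested, and in bulk RNA fewer cells of a type cannot be told apart from less RNA per cell.

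Of the 43 genes, 36 passed the filter on low reads, and purmorphamine was followed by a fall in 19 of them and a rise in 6, while 11 were not called. Subunits of integrins made up most of the genes that fell, led by Itga6, and the chains Lama2 and Lamc3 led those that rose. As shares of the 36, 52.8% fell and 16.7% rose, against 31.1% and 31.4% of all genes tested. Scaled by library totals only, without TMM factors, 18 of the 36 fell and 6 rose, while over all genes 4650 rose and 3163 fell, so that 59.5% of all calls were higher in place of 50.2%. Past a change of 1.5-fold, 13 fell (36.1%) and 2 rose (5.56%), against 7.56% and 7.89% of all genes tested. In the reads as deposited, all purmorphamine libraries were below all DMSO libraries for 16 of the 36 (44.4%) and above for 6 (16.7%), against 20.4% and 29.1% of all genes tested. The median log2 fold change of the 36 was -0.17, with a range from -2.70 to 2.04, and that of all genes tested was 0.0038. The plot of log2 fold changes by gene sets the classes side by side.

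**Figure D1:**
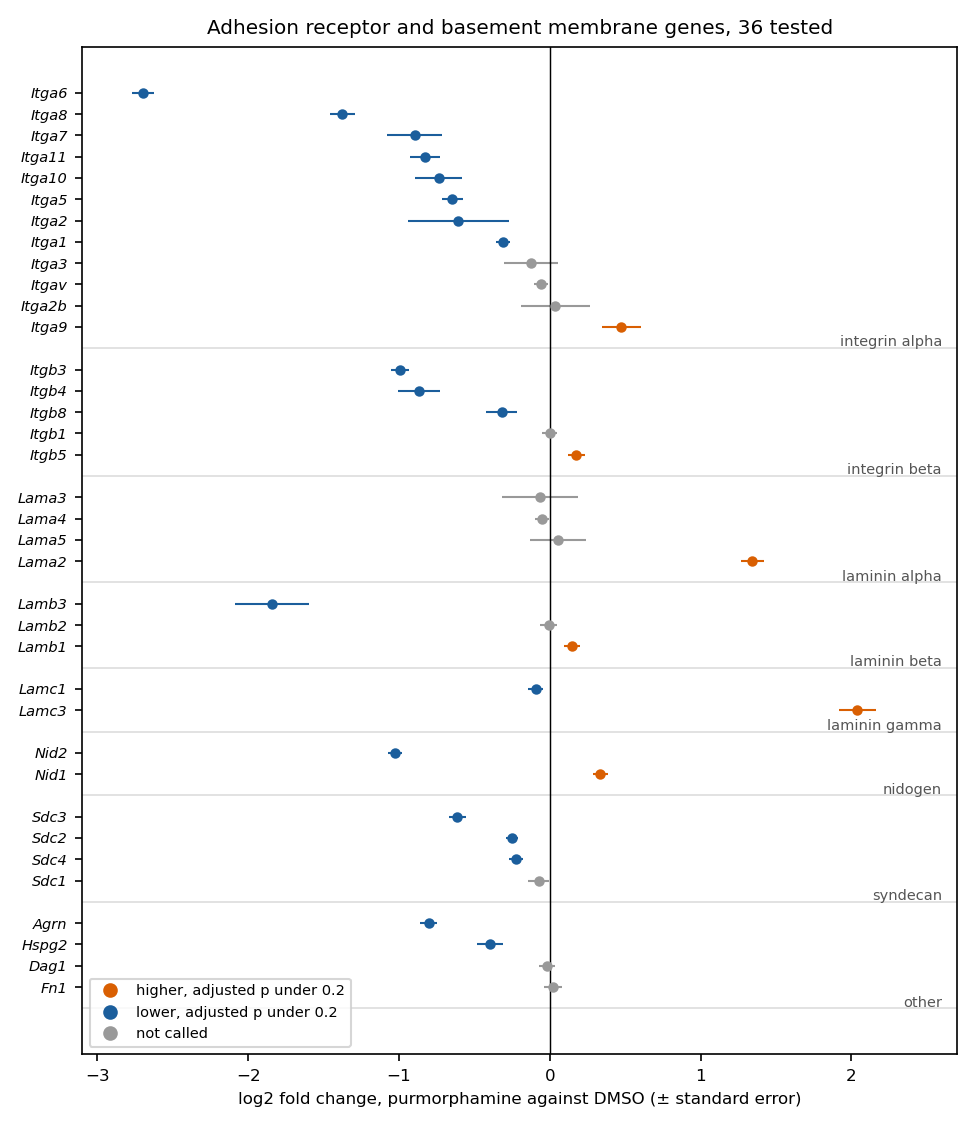
Log2 fold change of purmorphamine against DMSO vehicle with its standard error (edgeR, 3 against 4 libraries) for each of the 36 genes tested, grouped by class along the vertical axis. Most integrin α subunits lie left of 0, from -2.70 for Itga6, while Lama2 (1.34) and Lamc3 (2.04) lie farthest to the right.

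Upstream sequence was examined for short motifs that the genes might share. RefSeq windows of 250 bases before to 50 after a transcript start (GRCm38.p6) were at hand for 29 of the genes, 34 windows in all. Agrn, Dag1, Itga3, Itgb6 and Lamb3 each had more than 1 window, and those of Dag1 and those of Lamb3 overlap. The Gli motif GACCACCCA, searched on both strands, was in 0 of the 34, and in 83 of all 32851 windows (0.253%). It was also in 0 of the 2 windows at hand for Hedgehog targets, which cover 2 of the genes Gli1, Ptch1 and Hhip. The GC box GGGCGG was in 20 of the 34 (58.8%) and in 35.7% of all windows, the box CCAAT in 7 (20.6%) and in 37.4%, and TATAAA in 1 (that of Vtn) and in 13.6%. A match of CCAAT on the reverse strand can share bases with a GC box, and the matches describe letters only. The median GC content of all windows was 52.7%. Most windows of these genes were above it, with a range from 38.3% (Itgb6) to 83.3% (Agrn). The part of GC content in these shares was not tested. Among genes with a window, a change of at least 1.5-fold and a mean of at least 50 reads in a group, Lama2 had the largest rise and Itga8 the largest fall, and their windows are printed here, 5′ to 3′ along the transcript, with GGGCGG in capitals. That of Lama2 is chr10:27616893-27617192, minus strand, and that of Itga8 is chr2:12301895-12302194, minus strand, which held none of the 4 motifs.
Lama2: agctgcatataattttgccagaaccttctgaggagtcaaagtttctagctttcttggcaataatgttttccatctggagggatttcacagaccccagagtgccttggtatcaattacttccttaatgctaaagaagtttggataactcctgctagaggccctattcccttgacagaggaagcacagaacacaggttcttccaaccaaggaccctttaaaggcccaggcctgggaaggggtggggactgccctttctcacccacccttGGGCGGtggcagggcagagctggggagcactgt
Itga8: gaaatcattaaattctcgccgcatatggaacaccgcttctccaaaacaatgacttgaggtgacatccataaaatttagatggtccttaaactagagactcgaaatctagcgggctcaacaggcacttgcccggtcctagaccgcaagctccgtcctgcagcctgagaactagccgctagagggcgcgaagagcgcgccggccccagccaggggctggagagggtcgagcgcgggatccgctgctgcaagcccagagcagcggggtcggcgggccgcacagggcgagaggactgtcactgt

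Among the integrin α subunits, 8 of the 12 tested fell (66.7%), 1 rose (8.33%) and 3 were not called. Over all genes tested, 31.1% fell and 31.4% rose. All 4 subunits of collagen receptors fell (Itga1, Itga2, Itga10 and Itga11), though the call of Itga2 was weak. So did 2 of the 3 of laminin receptors (Itga6 and Itga7) and 2 of the 4 of receptors for the RGD sequence (Itga5 and Itga8). The median log2 fold change of the 12 was -0.63.

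Itga6, which pairs with β1 or β4 as a laminin receptor (ENSMUSG00000027111, chromosome 2 from 71583473 to 71696673 in mm9), changed most. It had 1159, 1130 and 1165 reads under DMSO and 193, 173, 158 and 210 under purmorphamine. The groups were far apart, with mean reads 6.27-fold lower with purmorphamine. The log2 fold change was -2.70 (SE, the standard error, 0.0744, adjusted p = 3.87e-14 from edgeR), the 55th lowest of the 12388 genes tested. Reads of S100b, given above, were lower in the same libraries, and a link to Itga6 was not tested. Itga7, the laminin receptor subunit best known from muscle, had 46, 41 and 43 reads under DMSO and 27, 26, 20 and 23 with purmorphamine, again with no overlap (log2 fold change -0.90, adjusted p = 0.000725 from edgeR). Itga3, the other laminin receptor subunit, was not called, with 54 to 60 reads against 39 to 69 and a 95% interval of the log2 fold change from -0.48 to 0.23.

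Itga8, whose product joins β1 in a receptor for nephronectin and other RGD proteins (ENSMUSG00000026768, chromosome 2 from 12028059 to 12223747 in mm9), had 300, 302 and 297 reads under DMSO and 114, 120, 120 and 123 with purmorphamine. Within each group the libraries were nearly alike, and the groups did not overlap. The log2 fold change was -1.38 (SE 0.084, adjusted p = 5.74e-10 from edgeR). Itga5, the α subunit of the main fibronectin receptor (ENSMUSG00000000555, chromosome 15 from 103174520 to 103197394), had 2133, 2300 and 2422 reads with vehicle against 1579, 1725, 1362 and 1367. Its fall was smaller but every purmorphamine library was lower (log2 fold change -0.65, SE 0.0713, adjusted p = 1.06e-06 from edgeR). Itgav, which joins several β subunits and had the most reads of the α class (ENSMUSG00000027087, chromosome 2 from 83564354 to 83647273), had 6059, 6359 and 6203 reads against 6108, 5834, 6418 and 6236. These groups overlapped, and the log2 fold change of -0.060 was not called (SE 0.0468, adjusted p = 0.31 from edgeR). Without purmorphamine replicate 7 it was called lower, at -0.078 (adjusted p = 0.185 from edgeR). Itga2b, the platelet partner of β3, had 32 to 36 reads against 20 to 43 and was not called (95% interval -0.41 to 0.48).

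The subunits of the collagen receptors, all of which pair with β1, fell by unlike amounts. Itga11, a receptor of fibrillar collagen on fibroblasts (ENSMUSG00000032243, chromosome 9 from 62525433 to 62631989 in mm9), had 229, 256 and 230 reads under DMSO and 142, 157, 120 and 136 with purmorphamine. Its log2 fold change was -0.83 (SE 0.0993, adjusted p = 2.9e-06 from edgeR). Itga10, best known from cartilage (ENSMUSG00000090210, chromosome 3 from 96449307 to 96468642), had 62, 70 and 74 reads against 36, 50, 39 and 45. For both genes the purmorphamine libraries were all lower, and for Itga10 the log2 fold change was -0.74 (SE 0.157, adjusted p = 0.000979 from edgeR). Itga1, with 3152, 3224 and 3325 reads against 2703, 2512, 2756 and 2800, was the most abundant of the collagen receptor subunits per exon length and fell by 0.31 on the log2 scale (adjusted p = 5.38e-05 from edgeR). Itga2, at 20, 19 and 11 reads against 17, 7, 13 and 8, overlapped between groups, and its call was weak (log2 fold change -0.61, adjusted p = 0.15 from edgeR). It was lost, with adjusted p from edgeR of 0.392, 0.33, 0.309 and 0.295, when DMSO replicate 2, DMSO replicate 3, purmorphamine replicate 6 or purmorphamine replicate 8 was left out. Itga1 and Itga2 are neighbours on chromosome 13, from 115748087 to 115892372 and from 115625924 to 115722449.

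Itga9, which pairs with β1 and binds tenascin among other ligands, was the α subunit that rose. It had 63, 75 and 61 reads under DMSO and 92, 95, 94 and 100 with purmorphamine, without overlap (log2 fold change 0.47, adjusted p = 0.00576 from edgeR). Its closest relative Itga4 had at most 5 reads in any library and was not tested. The leukocyte subunits that share β2 or β7 and lie outside the symbol rule were near background. Itgal had 8 to 19 reads against 6 to 10 and was called lower (adjusted p = 0.0973 from edgeR), Itgae had at most 8, and Itgam and Itgax at most 1.

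**Figure D2:**
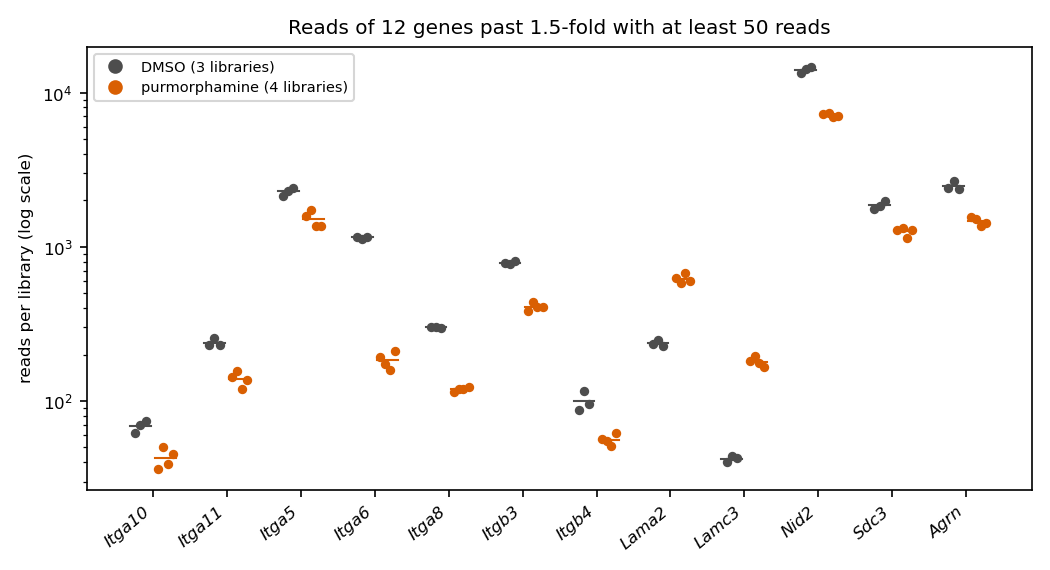
Reads per library on a log scale for the 12 genes with a change of at least 1.5-fold and a mean of at least 50 reads in a group; each point is a library and each short line a group mean (3 DMSO libraries in grey, 4 purmorphamine libraries in orange). The groups do not overlap for any of the 12, which is no separate evidence because the 12 were chosen by their change. Over all genes tested, 20.4% were lower and 29.1% higher without overlap. Lama2 and Lamc3 are the genes with more reads after purmorphamine.

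Of the 5 integrin β subunits tested, 3 fell (60%), 1 rose (20%) and 1, Itgb1, was not called. The shares over all genes tested were 31.1% and 31.4%. Itgb1, the shared partner of most α subunits (ENSMUSG00000025809, chromosome 8 from 131209354 to 131257300 in mm9), had 26851, 25991 and 27007 reads under DMSO and 26970, 25856, 28357 and 28792 with purmorphamine. The groups overlapped, and the log2 fold change was -0.0002 (SE 0.05, adjusted p = 0.998 from edgeR), with a 95% interval from -0.098 to 0.098. Itgb3, which joins αv in a receptor for vitronectin and other RGD proteins (ENSMUSG00000020689, chromosome 11 from 104469114 to 104531990), had 779, 777 and 805 reads against 383, 437, 407 and 409. Every purmorphamine library was lower, and the mean fell 1.92-fold (log2 fold change -0.99, SE 0.0603, adjusted p = 5.45e-10 from edgeR). Itgb4, the partner of α6 in hemidesmosomes (ENSMUSG00000020758, chromosome 11 from 115835823 to 115869926), had 87, 116 and 95 reads against 57, 55, 51 and 62. It too separated the groups, at a log2 fold change of -0.87 (SE 0.14, adjusted p = 7.49e-05 from edgeR). 

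Itgb5 and Itgb8, further partners of αv, moved in opposite directions and by less. Itgb5 rose from 1936, 1948 and 2016 reads to 2300, 2515, 2081 and 2288 (log2 fold change 0.18, adjusted p = 0.0152 from edgeR). Itgb8, which acts on latent TGF-β, fell from 199, 181 and 178 to 138, 168, 170 and 140 (log2 fold change -0.32, adjusted p = 0.0194 from edgeR). Neither gene overlapped between groups in the reads as deposited, but after scaling by TMM factors the exact permutation test, two-sided, gave p = 0.0571 for both, against 0.0286 as the smallest p that 3 libraries against 4 allow. Itgb2, Itgb6 and Itgb7, subunits of leukocyte and epithelial integrins, had at most 12 reads in any library and were not tested.

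Levels of different genes were compared as reads per kilobase of exon after TMM scaling. On that scale Itgb1 was at 6646 ± 164 (SD, n = 3) under DMSO and 6645 ± 343 (SD, n = 4) with purmorphamine, and made up 90.0% and 90.1% of all β subunit reads per kilobase. The α subunits together were at 1504 ± 44.5 and 1112 ± 12.7. Itgav was 39.2% ± 0.734 of that sum with vehicle and 50.8% ± 2.61 with purmorphamine, Itga5 31.4% ± 1.14 and 27.1% ± 2.85, and Itga1 11.8% ± 0.159 and 12.8% ± 0.733. The share of Itga6 went from 8.65% ± 0.323 to 1.80% ± 0.225. The 3 leading α subunits had the order Itgav, Itga5 and Itga1 in both groups, and Itga6, next in order under DMSO, was below Itga11 (2.40% ± 0.24) with purmorphamine. The level of Itgav itself was not called, and the sum of the class was lower. Shares depend on each other within a class and were not tested.

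**Figure D3:**
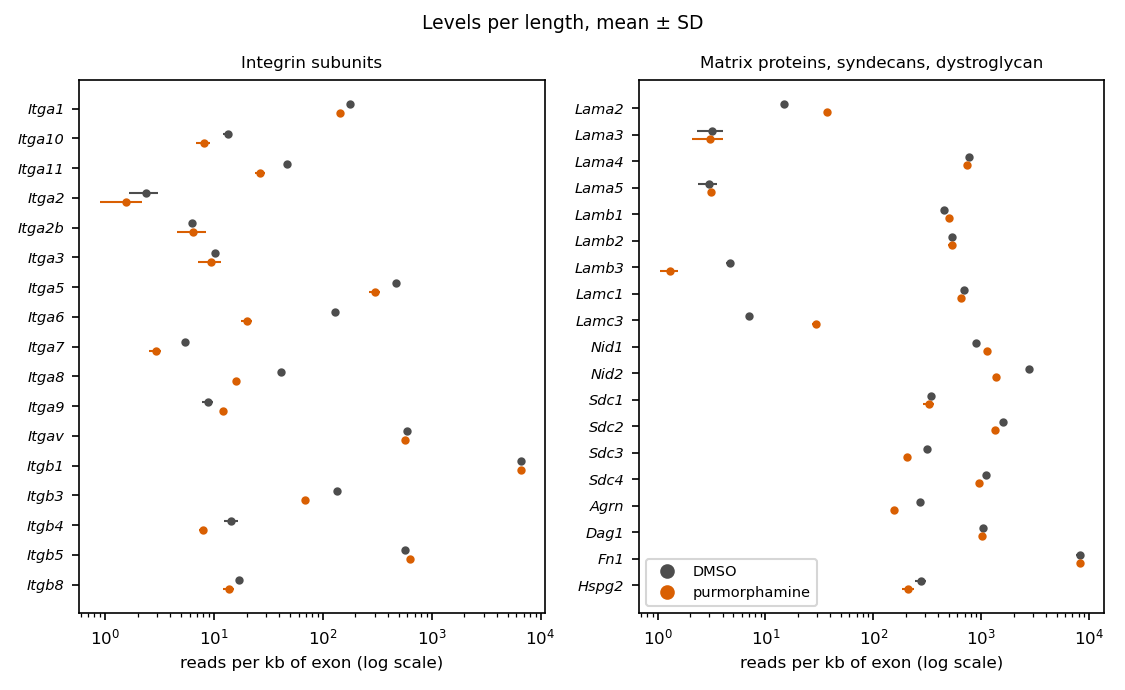
Mean reads per kilobase of exon ± SD on a log scale, after TMM scaling, for integrin subunits (left) and for matrix proteins, syndecans and dystroglycan (right), with vehicle (grey, n = 3) and purmorphamine (orange, n = 4). Itgb1 exceeds every α subunit in both groups, and Fn1 and Nid2 are the highest of the right panel with vehicle.

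Among laminin chains, 3 of the 9 tested rose (33.3%), 2 fell (22.2%) and 4 were not called. The share that rose was near the 31.4% of all genes tested, and 31.1% of those fell. The 3 chains past 1.5-fold (Lama2, Lamc3 and Lamb3) each had under 5% of the reads per kilobase of their class. Lama2, the α chain of muscle and Schwann cell basement membranes (ENSMUSG00000019899, chromosome 10 from 26700894 to 27336948 in mm9), had 235, 247 and 227 reads under DMSO and 624, 584, 672 and 596 with purmorphamine. All purmorphamine libraries were higher, on average 2.62-fold, with a log2 fold change of 1.34 (SE 0.0752, adjusted p = 1.84e-10 from edgeR). Its window printed above held the GC box. Of the markers above, the 3 skeletal muscle genes stayed at 7 reads or fewer in sum and S100b was lower with purmorphamine. Any link of these markers to Lama2 was not tested. Lamc3, a γ chain with a narrower distribution than Lamc1 (ENSMUSG00000026840, chromosome 2 from 31742611 to 31802259), had 40, 44 and 43 reads against 183, 196, 176 and 166. The mean rose 4.26-fold (log2 fold change 2.04, SE 0.125, adjusted p = 5.74e-10 from edgeR), the largest rise of the 36 genes.

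The abundant chains changed little. Lama4, the α chain of basement membranes in vessels and mesenchymal tissue (ENSMUSG00000019846, chromosome 10 from 38685121 to 38830194 in mm9), had 9047, 9032 and 9188 reads against 9013, 9580, 9005 and 8699. These overlapped, and the log2 fold change of -0.050 was not called (SE 0.0454, adjusted p = 0.395 from edgeR, 95% interval -0.14 to 0.039). Lamb1 (ENSMUSG00000002900, chromosome 12 from 31949899 to 32014709), with 4175, 4493 and 4567 reads against 5016, 5426, 5002 and 4729, rose by a small amount (log2 fold change 0.15, SE 0.0522, adjusted p = 0.0299 from edgeR). After scaling, the exact permutation test, two-sided, gave p = 0.0857 for Lamb1. Lamb2 had 3083 to 3329 reads against 2949 to 3624 and was not called (95% interval -0.12 to 0.11).

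Lamc1, the γ chain of most laminins (ENSMUSG00000026478, chromosome 1 from 155065852 to 155180116 in mm9), had 5266, 5744 and 5778 reads under DMSO and 5487, 5786, 5253 and 5158 with purmorphamine. The groups overlapped. Its log2 fold change of -0.093 was called lower at the threshold of 0.2 (SE 0.0509, adjusted p = 0.147 from edgeR), but not with scaling by library totals alone (-0.046, adjusted p = 0.489 from edgeR). The call was also lost without DMSO replicate 3, DMSO replicate 4, purmorphamine replicate 5, purmorphamine replicate 7 or purmorphamine replicate 8, with adjusted p from edgeR of 0.335, 0.43, 0.227, 0.26 and 0.357.

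Lama3 and Lamb3, which encode chains of the laminin that anchors epidermis, had few reads. Lamb3 had 33, 31 and 28 reads under DMSO and 8, 11, 7 and 9 with purmorphamine, a fall without overlap (log2 fold change -1.84, SE 0.246, adjusted p = 9.75e-06 from edgeR). Lama3 was not called, at 24 to 42 reads against 22 to 44 (95% interval -0.56 to 0.43). Lama5, the α chain of most adult epithelia, had 27 to 40 reads against 34 to 37 and was not called (95% interval -0.32 to 0.42), and Lama1, the embryonic α chain, had at most 9 reads and was not tested.

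Per kilobase of exon, Lama4 made up 97.3% ± 0.144 (SD, n = 3) of the laminin α chains with vehicle and 94.4% ± 0.505 (SD, n = 4) with purmorphamine. Lama2 took 1.87% ± 0.0927 and 4.76% ± 0.367. The γ chains had the same shape, with Lamc1 at 98.8% ± 0.064 and 95.7% ± 0.103 and Lamc3 at 1.02% ± 0.0145 and 4.32% ± 0.0904. Lamb2 and Lamb1 held nearly all β chain reads, at 54.0% ± 0.61 and 45.5% ± 0.652 with vehicle and 51.6% ± 1.75 and 48.3% ± 1.77 with purmorphamine. Lamb2 was the higher of the pair in every library except purmorphamine replicate 7 (49.0% against 50.9%). The sums of the α, β and γ chains were 789 ± 9.26, 997 ± 38.9 and 698 ± 34.96 reads per kilobase with vehicle and 786 ± 28.6, 1039 ± 63.7 and 676 ± 33.7 with purmorphamine.

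**Figure D4:**
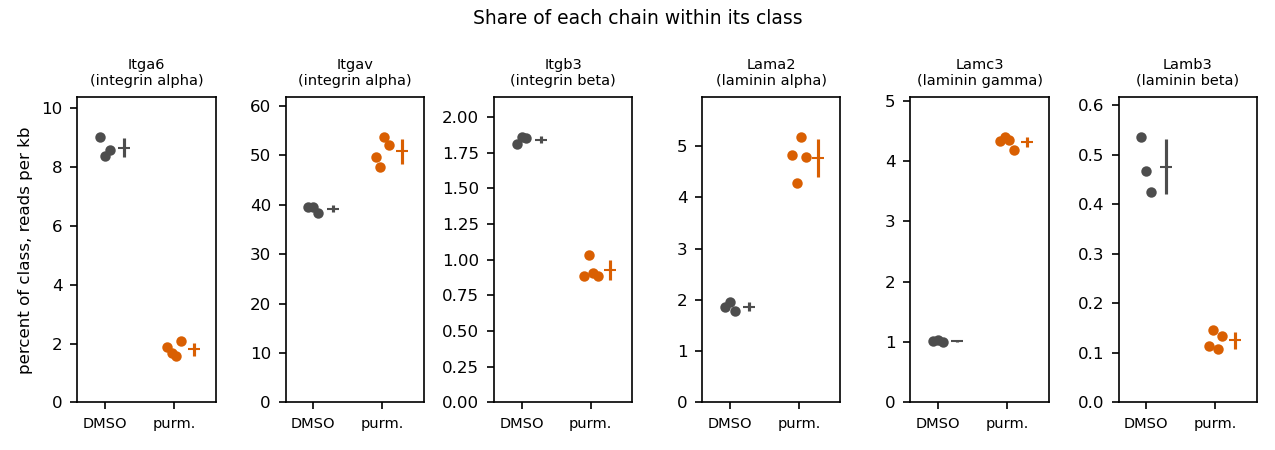
Share of a subunit or chain in the reads per kilobase of its class, in percent, for 6 genes; each point is a library, and the cross beside the points gives the mean ± SD (3 DMSO libraries in grey, 4 purmorphamine libraries in orange, each axis from 0 with its own range). Itga6, Itgb3 and Lamb3 take smaller shares with purmorphamine, Itgav, Lama2 and Lamc3 larger ones.

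The nidogens, which bridge the laminin and collagen IV sheets, went in opposite directions. Nid2 (ENSMUSG00000021806, chromosome 14 from 20570279 to 20631209 in mm9) had 13481, 14178 and 14614 reads under DMSO and 7242, 7352, 6931 and 7066 with purmorphamine. The groups were well apart, with a mean 1.97-fold lower (log2 fold change -1.03, SE 0.0453, adjusted p = 9.0e-12 from edgeR). Nid1 (ENSMUSG00000005397, chromosome 13 from 13529669 to 13604742) had 5906, 6260 and 6138 reads against 7648, 8619, 7989 and 7557, all higher with purmorphamine (log2 fold change 0.34, SE 0.0511, adjusted p = 3.98e-05 from edgeR). Per kilobase of exon, Nid2 stood at 2775 ± 115 (SD, n = 3) and Nid1 at 895 ± 24.5 with vehicle, and at 1362 ± 30.0 (SD, n = 4) and 1130 ± 67.0 with purmorphamine. Nid2 remained the higher of the pair in both groups.

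The 4 syndecans, Hspg2 and Agrn were grouped here because their products carry heparan sulfate at the surface or in the basement membrane. Genes outside the symbol rule were not counted in this group. Of these 6 genes, Sdc2, Sdc3, Sdc4, Hspg2 and Agrn fell. Sdc1 was not called, so that 5 of 6 fell (83.3%), against 31.1% of all genes tested. Past 1.5-fold, 2 of the 6 fell (33.3%), against 7.56%. Sdc3, the syndecan best known from nerve and muscle (ENSMUSG00000025743, chromosome 4 from 130348252 to 130382434 in mm9), had 1747, 1851 and 1977 reads under DMSO and 1275, 1326, 1141 and 1282 with purmorphamine. Its groups did not overlap (log2 fold change -0.61, SE 0.0566, adjusted p = 1.14e-07 from edgeR). Sdc2, the syndecan of mesenchymal cells and the highest of the 4 here (ENSMUSG00000022261, chromosome 15 from 32850278 to 32964685), had 5590, 5574 and 5514 reads against 4790, 4791, 4876 and 4866. The fall was small against a narrow spread (log2 fold change -0.25, SE 0.0415, adjusted p = 9.58e-05 from edgeR). Sdc4, a focal adhesion component, had 2741, 2776 and 2844 reads against 2502, 2487, 2312 and 2557, also without overlap (log2 fold change -0.22, adjusted p = 0.000692 from edgeR). Sdc1 had 1278 to 1293 reads against 1062 to 1415 and was not called (95% interval -0.21 to 0.064), but was called lower without purmorphamine replicate 6 (log2 fold change -0.12, adjusted p = 0.117 from edgeR). The 4 syndecans together were at 3382 ± 37.2 reads per kilobase (SD, n = 3) under DMSO and 2839 ± 66.3 (SD, n = 4) with purmorphamine.

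Agrn, which encodes agrin, the organiser of acetylcholine receptors at the neuromuscular junction and a dystroglycan ligand (ENSMUSG00000041936, chromosome 4 from 155539199 to 155571736 in mm9), had 2419, 2675 and 2358 reads against 1552, 1524, 1367 and 1436. Every purmorphamine library was lower (log2 fold change -0.80, SE 0.0545, adjusted p = 2.2e-09 from edgeR). Hspg2, which encodes perlecan, had 3377, 4079 and 4238 reads against 3398, 3349, 2827 and 2666. The lowest vehicle library lay below the highest purmorphamine library, though not after scaling by TMM factors, and the fall was called (log2 fold change -0.40, adjusted p = 0.00085 from edgeR). 

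Dag1, which encodes both subunits of dystroglycan, was not called, at 6178 to 6618 reads under DMSO and 6041 to 7156 with purmorphamine (log2 fold change -0.019, 95% interval -0.12 to 0.085). Fn1, which encodes fibronectin, the ligand of α5β1 (ENSMUSG00000026193, chromosome 1 from 71631894 to 71699974 in mm9), had 85320, 96999 and 99163 reads against 101962, 102630, 99257 and 89887. The groups overlapped, and the log2 fold change of 0.022 was not called (SE 0.0618, adjusted p = 0.8 from edgeR, 95% interval -0.099 to 0.14). Vtn, which encodes vitronectin, a plasma protein made by the liver, had 0 reads in 5 libraries and 1 read in 2 of the purmorphamine libraries. A count of 0 allows up to 3 reads per library, for counting error only.

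Proteins that work with these receptors were examined in 4 lists, of which 110 genes were in the table and 94 were tested. Of the 94, 42 fell (44.7%) and 28 rose (29.8%), against 31.1% and 31.4% of all genes tested. Beyond 1.5-fold, 14 rose (14.9%) and 9 fell (9.57%), against 7.89% and 7.56%.

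Of the focal adhesion linkers and kinases, which couple integrin tails to actin, 16 of 35 tested fell and 9 rose (median log2 fold change -0.10). These are 45.7% and 25.7%, against 31.1% and 31.4% of all genes tested. Kank1, a talin-binding protein at the rim of adhesions, fell from 1293, 1318 and 1263 reads to 409, 403, 393 and 499 (log2 fold change -1.65, SE 0.0686, adjusted p = 4.27e-12 from edgeR). Vcl, which encodes vinculin, fell from 6277, 6311 and 6609 to 4563, 4771, 4368 and 4724 (log2 fold change -0.52, adjusted p = 5.49e-08 from edgeR). In the other direction, Sorbs3, which encodes the vinculin-binding protein vinexin, rose from 767, 758 and 749 reads to 2634, 3161, 2582 and 2438 (log2 fold change 1.79, SE 0.0747, adjusted p = 4.42e-12 from edgeR). Tns1, which encodes tensin, rose from 393, 418 and 412 to 804, 873, 786 and 731 (log2 fold change 0.92, adjusted p = 5.92e-09 from edgeR). None of these 4 genes overlapped between groups, which adds no evidence because they were picked for their large changes. Over all genes tested, 20.4% were lower and 29.1% higher without overlap.

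Among basement membrane collagens and accessory proteins, 11 of 19 tested fell (57.9%) and 7 rose (36.8%), with a median of -0.20, against 31.1% and 31.4% of all genes tested. All 7 that rose passed 1.5-fold, which is 36.8% of the 19 tested, against 7.89% of all genes tested. Of the 7, Col4a3 and Col4a4 had at most 4 and 5 reads in any DMSO library. Fbln1, which encodes fibulin-1, a binding partner of laminin, nidogen and fibronectin, went from 8, 4 and 7 reads to 95, 131, 87 and 70 (log2 fold change 3.85, SE 0.307, adjusted p = 1.83e-08 from edgeR). Tinag, a nephritis antigen of the tubular basement membrane, rose from 56, 65 and 49 to 242, 239, 219 and 249 (log2 fold change 2.02, adjusted p = 2.58e-10 from edgeR). The falls were led by Col15a1, a collagen at the interstitial side of basement membranes, from 314, 386 and 339 reads to 81, 143, 81 and 92 (log2 fold change -1.85, SE 0.144, adjusted p = 1.31e-08 from edgeR). Ntn4, which encodes netrin-4, a protein that binds laminin γ chains, fell from 506, 509 and 504 to 250, 205, 242 and 272 (log2 fold change -1.11, adjusted p = 7.46e-09 from edgeR).

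Of the dystroglycan partners and the enzymes that build its laminin-binding glycan, 9 of 22 tested fell (40.9%) and 7 rose (31.8%), with a median of -0.018. The share that rose was near the 31.4% of all genes tested, and 31.1% of those fell. Sntb1, a syntrophin, fell from 80, 80 and 103 reads to 21, 25, 18 and 22 (log2 fold change -2.07, SE 0.176, adjusted p = 4.04e-08 from edgeR), and Dtna, which encodes α-dystrobrevin, fell from 254, 277 and 245 to 124, 125, 136 and 139 (log2 fold change -1.03). Utrn, which encodes utrophin, the relative of dystrophin outside muscle, rose from 2352, 2384 and 2354 to 3793, 3583, 4135 and 3584 (log2 fold change 0.63, SE 0.0551, adjusted p = 5.9e-08 from edgeR). Ispd, which makes a sugar donor for the glycan, rose from 95, 67 and 89 to 130, 146, 169 and 164 (log2 fold change 0.82, adjusted p = 0.000112 from edgeR). Dag1 itself, as given above, was not called.

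Of the enzymes of heparan sulfate, 6 of 18 tested fell (33.3%) and 5 rose (27.8%), near the 31.1% and 31.4% of all genes tested, with a median of 0.0054. Sulf2, which removes sulfate from heparan sulfate outside the cell, rose from 1059, 1063 and 1182 reads to 3308, 4291, 3109 and 3163 (log2 fold change 1.61, SE 0.0926, adjusted p = 2.62e-10 from edgeR). Ndst1, an enzyme of N-sulfation, rose from 2638, 2687 and 2722 to 3839, 3888, 3648 and 3746 (log2 fold change 0.45, adjusted p = 2.37e-07 from edgeR). Extl1, of the exostosin family that builds the chain, fell from 104, 142 and 139 to 22, 11, 20 and 33 (log2 fold change -2.62, SE 0.215, adjusted p = 2.55e-08 from edgeR). Hs6st1, a sulfotransferase, fell from 974, 946 and 1004 to 632, 617, 576 and 622 (log2 fold change -0.72, adjusted p = 8.62e-09 from edgeR).

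**Figure D5:**
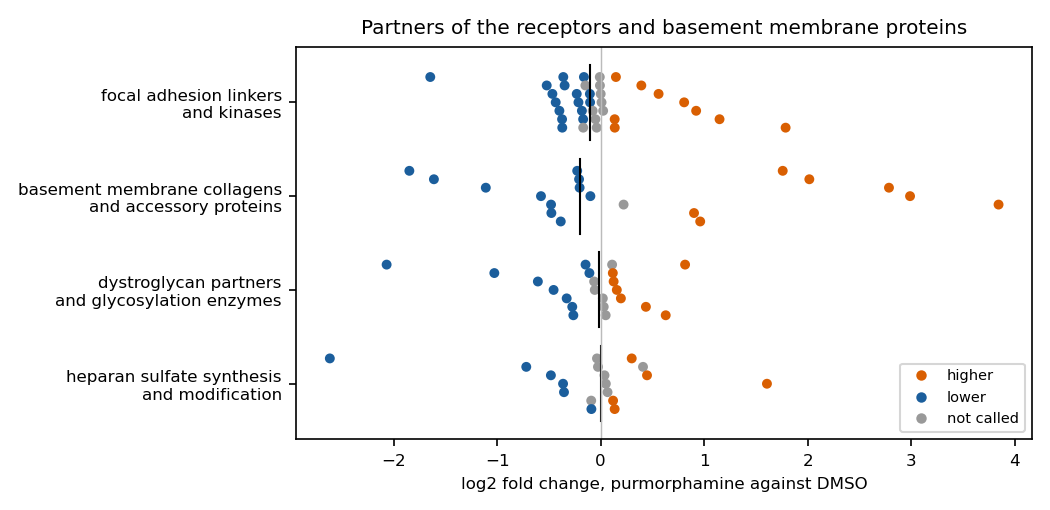
Log2 fold change of purmorphamine against DMSO vehicle for the tested genes of the 4 partner lists; each point is a gene, coloured by its call (edgeR, adjusted p under 0.2), and black bars are list medians. The medians lie between -0.20 (basement membrane collagens and accessory proteins) and 0.0054 (heparan sulfate synthesis), while single genes spread from -2.62 (Extl1) to 3.85 (Fbln1).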

How the data were processed

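RNA from C3H10T1/2 cells was sequenced by the authors as stranded libraries depleted of ribosomal RNA. Per the labels and the study's methods, reads were aligned with STAR 2.5.3a to mm9 (both from the submitters' processing notes), resampled to near-equal numbers and counted on the sense strand. The authors deposited these counts, whole numbers per gene. All 7 libraries were mapped by their titles and 0 columns were left out. The 43 genes, the lists and the rule for naming genes (called, at least 1.5-fold, at least 50 mean reads in a group, or the most reads of a class, and the 2 largest rises and falls of each partner list) were chosen with earlier results of these data known. Counts were fitted for all genes with edgeR 4.0.16 (R 4.3.3): TMM factors, the default filter (minimum count 10, total 15), and the quasi-likelihood test for the treatment, without covariates. Standard errors come from the fold change and its F statistic, and 95% intervals are 1.96 standard errors either side. For single genes, an exact permutation test ran over the 35 assignments of libraries on log2 scaled counts with 1 added. Reads per kilobase used merged exons of GENCODE M21, matched by identifier for 17632 genes (95.5%), which need not be the annotation used for counting. Coordinates of genes are those of the deposited table. Promoter windows are RefSeq's (GRCm38.p6), and amino acid sequences were not analysed here. Some genes that the symbol rule or the marker lists cover are counted but not reported here. The fit was tested on simulated data. Alternatives were library totals alone, DESeq2 size factors, DESeq2 1.42.0, limma-voom (limma 3.58.1, the study's test), other filters and thresholds, and leaving out each library.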

Additional observations from a re-analysis of the deposited data

Results flagged for a closer look

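Fn1 was the gene, among the 36 tested for stray libraries, in which a purmorphamine library stood apart. After TMM scaling, the gap between purmorphamine replicate 8 (89887 reads as deposited) and the next library was 0.8299 of the range of the 4, just above the Dixon critical value for 4 values. Chance alone would give about 1.8 such genes among 36. The gene was not called with or without that library.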

How the results depend on the processing

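Of the 25 genes called among the 36, 24 kept call and direction with library totals alone, 25 with DESeq2 size factors, 24 with DESeq2, 25 with limma-voom, 24 with no filter, 23 with at least 10 counts in every library, 23 at an adjusted p under 0.05, and 23 to 24 without each library in turn. None was called in the opposite direction under these settings. The calls lost were those of Lamc1 and Itga2 (with DESeq2, adjusted p = 0.262 for Itga2), and the filter of 10 counts in every library removed Itga2 and Lamb3 from the test. Counts moved with a required change of at least 1.5-fold: 977 genes higher and 936 lower over all genes tested, 2 of the 36 higher, and 14 higher and 9 lower in the partner lists. Signs turned only for genes that were not called. Itga2b was at -0.0240 with limma-voom. Itgb1 was at 0.0471 with library totals alone, 0.0013 with DESeq2 size factors and with DESeq2, 0.0036 with at least 10 counts in every library and 0.0052 with no filter. Lamb2 was at 0.0406 and Dag1 at 0.0288 with library totals alone. Leaving out each library in turn gave log2 fold changes from -0.0533 to 0.2373 for Itga2b, -0.2433 to 0.0131 for Itga3, -0.0209 to 0.0388 for Itgb1, -0.2511 to 0.1295 for Lama3, -0.0807 to 0.2114 for Lama5, -0.0434 to 0.0475 for Lamb2, -0.1202 to 0.0061 for Sdc1, -0.0539 to 0.0210 for Dag1 and -0.0380 to 0.0703 for Fn1. The cause was not tested. Library totals alone raised the median log2 fold change of all genes by 0.0475. No paired analysis was possible because replicate numbers are not shared between DMSO and purmorphamine. Depth limits what can be said of the 7 genes not tested, none above 12 reads in any library.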
